A study of Homo sapiens with 12 samples.

Results

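Transcripts of 8 genes were followed in CCRF-CEM, a T-cell leukemia line grown in culture: the early growth response factors EGR1, EGR2 and EGR3, the nuclear receptors NR4A1, NR4A2 and NR4A3, and the EGR-binding corepressors NAB1 and NAB2. The genes were taken by symbol from the 44147 features of the deposited tables, with no threshold on their values. RNA was sequenced from the wild-type parent line and from its SLFN11 gene knockout. Each line was cultured in RPMI1640 with 10% serum and given DMSO, the solvent, or prexasertib, a CHK1 kinase inhibitor, at 100 nM for 6 h. The labels give no time for the DMSO arm. The 4 groups held 3 libraries each. The labels state neither how the knockout was made nor whether it is 1 clone, and nothing in them ties the 3 libraries of a group to separate cultures. The p-values below therefore rest on a spread between libraries that could be technical.

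The treatment of each library has conflicting sources. In 12 of 12 records, the attached file carries the name of a library that the titles assign to the other treatment of that line. In what follows, a library takes the treatment of the record its file is attached to, written as "labelled DMSO" and "labelled prexasertib". If the library names of the files hold instead, every prexasertib-against-DMSO difference below and every difference between the lines in that effect has the opposite sign at the same size, and the comparisons of knockout with parent under DMSO and under prexasertib change places. The line of each library is the same under both readings.

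EGR proteins are zinc finger transcription factors that bind GC-rich sites, and NR4A proteins are orphan nuclear receptors that bind DNA without a known ligand. Their genes are immediate early genes: in T cells they are transcribed within minutes of antigen receptor signaling through SRF with its ternary complex partners, CREB and MEF2 factors, and their RNAs are short-lived. NAB1 and NAB2 bind EGR proteins and recruit the NuRD chromatin remodeling complex. NAB2 is itself a target of EGR factors, so the pair forms a feedback loop.

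Libraries held 47887791 to 77548202 exonic and 16764538 to 26736753 intronic reads. SLFN11, the targeted gene, had exonic levels of 91.2 to 119 CPM (read counts scaled to library size) over the parent libraries and of 65.9 to 90.7 CPM over the knockout libraries, so its RNA was present in the knockout, with a log2 difference from the parent of -0.51 under the DMSO label and -0.41 under the prexasertib label. Its intronic reads were higher in the knockout, by 0.37 (adjusted p = 0.00041 by edgeR) and 0.61 (adjusted p = 1.2e-06). All 10 T-lineage markers reached 1 CPM, against 2 of 5 B-cell, 0 of 5 myeloid and 2 of 5 epithelial and fibroblast markers. The summed T-lineage markers ran from 1209 to 1538 CPM over libraries and the B-cell ones from 25.1 to 43.7 CPM. The epithelial and fibroblast ones ran from 2.97 to 12.9 CPM and the myeloid ones from 0.717 to 1.67 CPM. Among the myeloid markers CD14, LYZ and MPO averaged below 0.1 CPM over all libraries, with a CD14 mean of 0.137 CPM in parent cells labelled DMSO. The B-cell marker CD79A had group means from 17.4 to 32.1 CPM. Intronic reads made up 23.9 to 26.4% of a library's gene reads in 11 libraries and 30.3% in replicate 1 of parent cells labelled prexasertib. In bulk RNA, fewer expressing cells and less RNA per cell cannot be told apart.

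Of the EGR family, EGR1 and EGR2 were highest in parent cells labelled DMSO, while the EGR3 levels of the parent groups overlapped. EGR1 (hg19 chr5:137801179-137805004) is the founding member of the family and the one with the most reads here. Its exonic level was 14.25, 16.2 and 14.3 CPM in replicates 1 to 3 of parent cells labelled DMSO, 3.203, 1.87 and 1.91 CPM in prexasertib-labelled parent cells, 2.28, 2.64 and 2.44 CPM in DMSO-labelled knockout cells, and 1.47, 1.83 and 1.55 CPM in prexasertib-labelled knockout cells. The first group stood far above the others, and the DMSO-labelled and prexasertib-labelled libraries did not overlap in either line. In parent cells EGR1 fell by 2.68 on the log2 scale (SE 0.15), 6.39-fold, with an adjusted p of 6.8e-13 in the quasi-likelihood test of edgeR, Benjamini-Hochberg adjusted over all genes tested, which is the test behind every adjusted p below unless another is named. In knockout cells it fell by 0.60 (SE 0.17, adjusted p = 0.019 by edgeR). That smaller call was lost without replicate 2 (adjusted p = 0.10) or 3 (0.053) of knockout cells labelled DMSO and without replicate 1 (0.092) or 3 (0.10) of those labelled prexasertib, with the fold change between -0.69 and -0.53 in all 12 leave-outs. It was also lost by limma on log2(TPM + 1) (-0.26, adjusted p = 0.16) and on log2(TPM + 0.1) (-0.52, adjusted p = 0.13).

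EGR2 (hg19 chr10:64571756-64679660) restrains T cell activation and shares the DNA-binding domain of EGR1. It was low in these libraries, with 8 to 68 exonic reads in each. Exonic levels were 0.963, 0.614 and 0.629 CPM in DMSO-labelled parent cells, 0.274, 0.195 and 0.170 CPM in prexasertib-labelled parent cells, 0.255, 0.244 and 0.287 CPM in DMSO-labelled knockout cells, and 0.262, 0.243 and 0.166 CPM in prexasertib-labelled knockout cells. As for EGR1, only parent cells labelled DMSO stood above the rest, and in the knockout the treatment groups overlapped. The log2 change was -1.77 (SE 0.38, adjusted p = 0.00046 by edgeR) in parent cells and -0.22 (SE 0.40, adjusted p = 0.81) in knockout cells.

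EGR3, which acts with EGR2 in T cell tolerance, had at most 14 exonic reads in any library. The reads were 14, 14 and 14 in parent cells labelled DMSO, 4, 2 and 10 in parent cells labelled prexasertib, 6, 4 and 6 in knockout cells labelled DMSO, and 0, 10 and 4 in knockout cells labelled prexasertib. Of its exonic reads 39.8% lay outside other annotated genes. Its standard errors ran from 0.71 to 1.09 on the log2 scale, and the fit of all 4 groups called none of its differences. EGR4, the other family member, stayed at or below 0.17 CPM and was not tested.

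The 250 bases before the single RefSeq start of EGR1 and before 1 of the 3 starts of EGR2 are shown because both hold the site read by SRF, the CArG box. Capitals mark CArG boxes and, apart from them, the core TGACG of the cAMP response element or its complement CGTCA, which CREB factors read. Coordinates are GRCh38.p14. EGR1 lies on the plus strand and EGR2 on the minus strand.
EGR1 chr5:138465229-138465478: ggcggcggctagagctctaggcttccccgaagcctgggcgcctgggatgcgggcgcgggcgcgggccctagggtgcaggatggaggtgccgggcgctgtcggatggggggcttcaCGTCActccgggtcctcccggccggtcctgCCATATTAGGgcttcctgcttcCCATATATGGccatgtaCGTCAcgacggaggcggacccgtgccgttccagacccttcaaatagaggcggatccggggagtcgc
EGR2 chr10:62816367-62816616: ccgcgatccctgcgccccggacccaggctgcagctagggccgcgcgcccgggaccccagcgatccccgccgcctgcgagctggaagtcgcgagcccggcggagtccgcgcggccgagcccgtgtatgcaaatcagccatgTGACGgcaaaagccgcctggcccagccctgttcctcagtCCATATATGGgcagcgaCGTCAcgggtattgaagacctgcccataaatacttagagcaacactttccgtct
EGR1 had CArG boxes at 105 to 96 and at 83 to 74 bases before the start and EGR2 had 1 at 71 to 62. The windows of the other starts of EGR2 held no match to any motif searched. A CArG box occurred in 1.16% of all 35116 RefSeq windows of this length, and 2 or more in 11 windows, 0.0313%. Each of the windows shown also held 2 copies of TGACG, and 2 or more occurred in 4.76% of all windows.

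All 3 NR4A genes were highest in parent cells labelled DMSO, and NR4A1 had the most exonic reads of the early factors. NR4A1 (Nur77, hg19 chr12:52416616-52453291) is widely used as a reporter of antigen receptor signal strength. Its exonic level was 32.2, 35.6 and 33.3 CPM in DMSO-labelled parent cells, 4.95, 5.99 and 6.42 CPM in prexasertib-labelled parent cells, 10.7, 11.4 and 12.5 CPM in DMSO-labelled knockout cells, and 4.71, 5.76 and 5.25 CPM in prexasertib-labelled knockout cells. The treatment groups were apart in both lines, and the prexasertib-labelled groups of the 2 lines overlapped. NR4A1 fell by 2.54 on the log2 scale (SE 0.09, 5.83-fold) in parent cells, with an adjusted p of 2.8e-17 by edgeR. In knockout cells it fell by 1.14 (SE 0.10, 2.2-fold), with an adjusted p of 1.9e-09. Of its exonic reads 79.4% lay outside other annotated genes, and on those the parent change was -2.47.

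NR4A2 (Nurr1, hg19 chr2:157180944-157198860) is also known for its part in dopaminergic neurons. Exonic levels were 4.97, 4.84 and 4.54 CPM in DMSO-labelled parent cells, 0.993, 0.925 and 0.700 CPM in prexasertib-labelled parent cells, 1.13, 1.10 and 1.27 CPM in DMSO-labelled knockout cells, and 1.28, 1.18 and 1.31 CPM in prexasertib-labelled knockout cells. It differed from NR4A1 in that the knockout libraries of both treatments lay in the same narrow range. The change in parent cells was -2.44 (SE 0.16, 5.43-fold, adjusted p = 6.1e-12 by edgeR), and in knockout cells the value was 0.11 (SE 0.17, adjusted p = 0.77).

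NR4A3 (Nor1, hg19 chr9:102584137-102629173) had the largest fold between group means of exonic CPM in parent cells among the 8 genes. Exonic levels were 14.3, 14.6 and 13.6 CPM in DMSO-labelled parent cells, 1.28, 0.633 and 0.636 CPM in prexasertib-labelled parent cells, 3.11, 3.17 and 2.75 CPM in DMSO-labelled knockout cells, and 0.945, 1.16 and 0.995 CPM in prexasertib-labelled knockout cells. Treatment groups were apart in both lines, and within parent cells labelled prexasertib replicate 1 was above the other two. NR4A3 fell by 4.04 on the log2 scale (SE 0.17, 16.4-fold, adjusted p = 1.6e-15 by edgeR) in parent cells and by 1.54 (SE 0.18, 2.91-fold, adjusted p = 7.1e-07) in knockout cells. Without replicate 1 of parent cells labelled prexasertib the parent change was -4.50.

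The window before NR4A3 (GRCh38.p14, plus strand) is shown for its CREB-type sites, with each TGACG or CGTCA in capitals.
NR4A3 chr9:99821635-99821884: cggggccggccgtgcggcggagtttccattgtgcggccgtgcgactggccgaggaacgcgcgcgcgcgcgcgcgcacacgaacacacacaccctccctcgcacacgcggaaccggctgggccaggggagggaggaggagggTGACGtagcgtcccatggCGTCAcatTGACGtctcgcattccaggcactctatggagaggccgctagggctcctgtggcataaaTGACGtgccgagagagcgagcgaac
It held 4 copies of the core, and 3 or more occurred in 1.01% of the 35116 windows. No CArG box and no full element TGACGTCA was found in it. The 2 windows of NR4A1 held no match to the motifs searched. The motifs were the CArG box, TGACGTCA, TGACG, the EGR sites GCGTGGGCG and GCGGGGGCG, the NR4A site AAAGGTCA and the AP-1 site TGANTCA, each on both strands. TGACGTCA contains TGACG, and a match is a description of letters only.

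The corepressors stayed within 0.33 on the log2 scale in every exonic comparison. NAB1 (hg19 chr2:191511472-191557492) was the most abundant of the 8 transcripts by exonic reads per length. Its exonic level was 48.8, 45.4 and 50.1 CPM in DMSO-labelled parent cells, 51.9, 53.3 and 51.4 CPM in prexasertib-labelled parent cells, 48.4, 47.1 and 49.3 CPM in DMSO-labelled knockout cells, and 59.7, 59.8 and 62.3 CPM in prexasertib-labelled knockout cells. Knockout cells labelled prexasertib were the highest group, and the treatment groups did not overlap in either line. NAB1 rose by 0.33 (SE 0.05, 1.26-fold, adjusted p = 6e-05 by edgeR) in knockout cells. In parent cells the value was 0.12 (SE 0.05, adjusted p = 0.076). It passed there by edgeR on the deposited count of all reads of the gene (0.15, adjusted p = 0.032). It also passed by limma on log2(TPM + 1) (0.24, adjusted p = 0.0043) and log2(TPM + 0.1) (0.26, adjusted p = 0.0041), where the medians of all genes were 0.09 and 0.16. Of its exonic reads, 45.5% lay outside other annotated genes, and on those reads the knockout change was 0.28 (adjusted p = 0.0031 by edgeR).

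NAB2 (hg19 chr12:57482677-57489259) had 11.9, 15.5 and 12.97 CPM of exonic reads in parent cells labelled DMSO, 14.6, 16.5 and 17.0 CPM in prexasertib-labelled parent cells, 15.1, 16.3 and 14.7 CPM in DMSO-labelled knockout cells, and 18.0, 18.0 and 16.8 CPM in prexasertib-labelled knockout cells. The parent groups overlapped, with replicate 2 labelled DMSO above replicate 1 labelled prexasertib, while the knockout groups were apart. The change was 0.25 (SE 0.09, adjusted p = 0.026 by edgeR) in parent cells, where it passed, and 0.20 (SE 0.09, adjusted p = 0.14) in knockout cells, where it did not. The parent call did not hold without replicate 1 of parent cells labelled DMSO (0.13, adjusted p = 0.31), nor without replicate 3 of them (adjusted p = 0.10), replicates 2 (0.082) or 3 (0.11) of parent cells labelled prexasertib, or replicate 1 of knockout cells labelled DMSO (0.072). With only the groups compared in the fit the calls changed places, at 0.24 (adjusted p = 0.077) in parent and 0.20 (adjusted p = 0.021) in knockout cells. With all reads of the gene the parent value was 0.15 (adjusted p = 0.28).

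The window before NAB2 (GRCh38.p14, plus strand) is shown for the site of the factors that NAB2 represses, in capitals.
NAB2 chr12:57088864-57089113: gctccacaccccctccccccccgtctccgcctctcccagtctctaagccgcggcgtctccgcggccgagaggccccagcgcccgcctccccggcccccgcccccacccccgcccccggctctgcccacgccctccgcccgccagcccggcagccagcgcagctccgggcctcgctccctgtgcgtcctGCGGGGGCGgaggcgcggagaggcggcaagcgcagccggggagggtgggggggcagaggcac
The site GCGGGGGCG lay 62 to 54 bases before the start and occurred in 4.72% of all windows. NAB1 windows held matches to the same site and to GCGTGGGCG, which 0.72% of windows contain. They also held the core TGACG as its complement, at 189 to 185 and at 199 to 195 bases before different starts. At least 1 copy of that core occurred in 21.2% of all windows. Windows were found for 6 of the 8 genes, and where a gene had several starts the one with the most matches is printed, a choice made after the search.

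**Figure D1:**
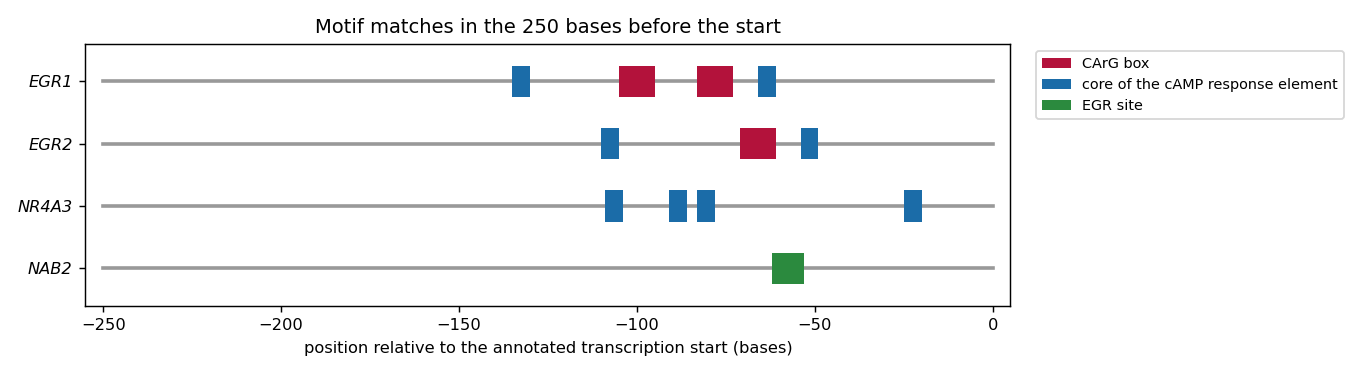
Motif matches in the 250 bases before 1 RefSeq start each of EGR1, EGR2, NR4A3 and NAB2, for EGR2 the start with the most matches. The x axis is the distance from the start in bases, each grey line is 1 window and each block is 1 match on either strand. CArG boxes appear in the EGR1 and EGR2 windows and the EGR site in that of NAB2, while NR4A3 holds 4 cores of the cAMP response element.

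Across the 8 genes in parent cells, 5 were lower and 1 was higher under the prexasertib label, and 36.3% of the 23045 genes tested were called in that comparison, 18.2% of them lower and 18.2% higher as shares of all tested. All 8 passed the filter on low counts. EGR3 needed libraries of parent cells labelled DMSO to pass. Outside that group only replicate 3 of parent cells and replicate 2 of knockout cells, both labelled prexasertib, reached 10 reads. Those are fewer libraries than the filter asks for. The EGR3 value enters the medians below and gives no support to a difference. The lower 5 were EGR1, EGR2, NR4A1, NR4A2 and NR4A3. In knockout cells 3 were lower and 1 was higher, against 12.9% of all genes called, 6.83% lower and 6.11% higher. The median log2 change of the 8 genes was -2.11 in parent cells, where that of all genes was 0.04, and -0.09 in knockout cells, where it was -0.00204.

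**Figure D2:**
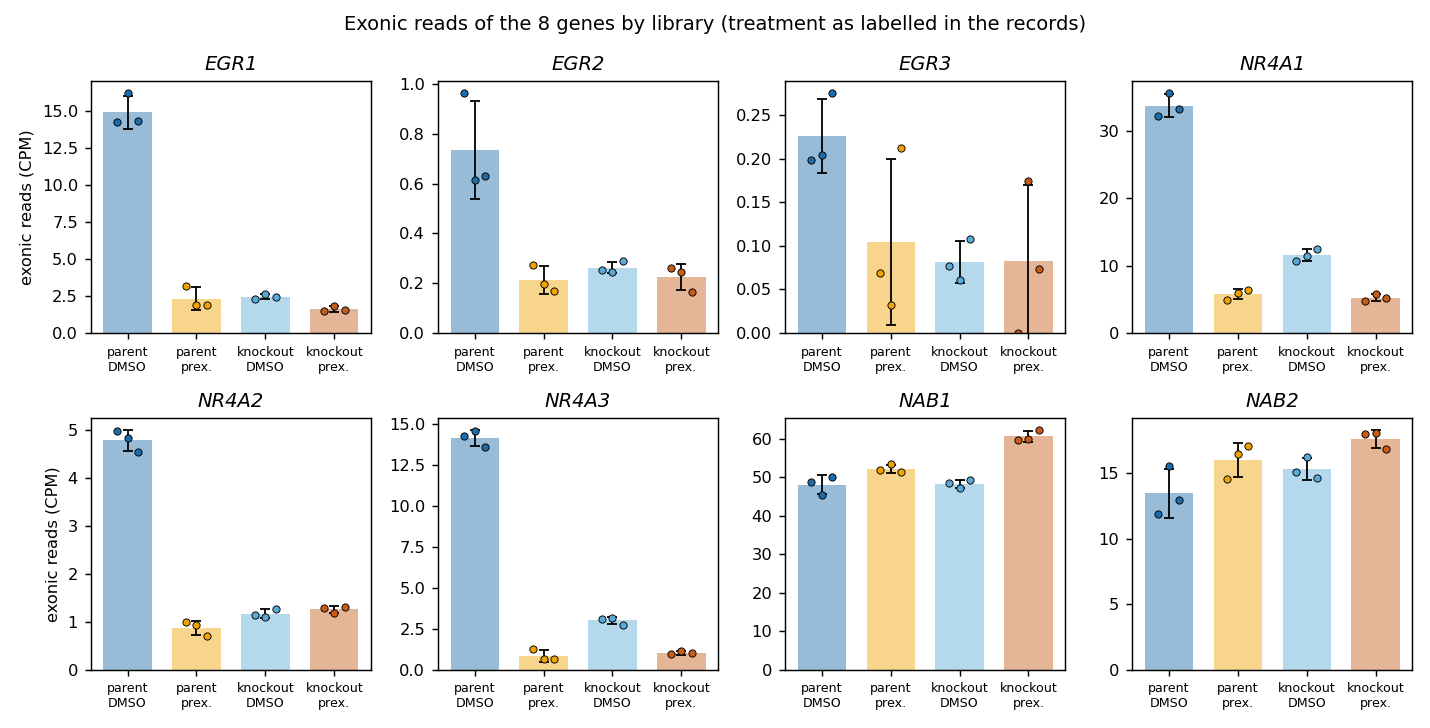
Exonic reads of the 8 genes in CPM (y axis, from 0, a scale of its own for each gene) by line and labelled treatment (x axis). Points are the 3 libraries, bars their mean and whiskers 1 SD. EGR1, EGR2 and the NR4A genes are highest in parent cells labelled DMSO, and NAB1 is highest in knockout cells labelled prexasertib.

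The effect of the label differed between the lines for 4 of the 8 genes, when the difference itself was tested, and 16.8% of all genes were called in that test, 9.53% in the lower and 7.32% in the higher direction. A negative value means a lower prexasertib-against-DMSO change in parent than in knockout cells. The difference was -2.08 (SE 0.23, adjusted p = 4.4e-07 by edgeR) for EGR1 and -1.41 (SE 0.13, adjusted p = 2.2e-08) for NR4A1. It was -2.55 (SE 0.24, adjusted p = 1.8e-08) for NR4A2 and -2.50 (SE 0.25, adjusted p = 1.1e-07) for NR4A3. EGR2 had -1.56 (SE 0.55, adjusted p = 0.054 by edgeR) and NAB1 -0.21 (SE 0.07, adjusted p = 0.051), each just outside the threshold, and EGR3 had -1.20 (SE 1.09) and NAB2 0.05 (SE 0.12). EGR2 passed without replicate 1 of parent cells labelled prexasertib (-1.81, adjusted p = 0.027), and also without replicate 2 of parent cells labelled DMSO or replicate 3 of knockout cells labelled prexasertib. NAB1 passed in 5 of 12 leave-outs, most clearly without replicate 2 of parent cells labelled DMSO (-0.29, adjusted p = 0.0062). It also passed with DESeq2 (adjusted p = 0.027), with the size factors of DESeq2 in edgeR (0.043) and under a filter that kept genes averaging 1 CPM or more (0.018), and EGR2 passed on reads outside other genes (0.046) and by limma on log2(TPM + 0.1) (-0.78, adjusted p = 0.041).

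The lines were then compared with each other within each label, in libraries that also enter the comparisons above. Under the DMSO label 5 of the 8 genes were lower in the knockout and 0 higher by edgeR (1 higher, NAB2, at an unadjusted p under 0.05), where 40% of all genes were called, 20.4% lower and 19.6% higher. EGR1 differed by -2.61 on the log2 scale (SE 0.15, 6.09-fold, adjusted p = 8.5e-13 by edgeR) and EGR2 by -1.49 (SE 0.36, adjusted p = 0.0015). NR4A1 differed by -1.55 (SE 0.09, 2.92-fold), NR4A2 by -2.04 (SE 0.16, 4.10-fold) and NR4A3 by -2.23 (SE 0.15, 4.69-fold), with adjusted p of 2.1e-13, 7.2e-11 and 7.4e-12 by edgeR. EGR3 had -1.45 (SE 0.71, adjusted p = 0.11, and 0.034 when only the groups compared were fitted), NAB1 0.0061 (SE 0.05, adjusted p = 0.94) and NAB2 0.19 (SE 0.09, adjusted p = 0.091), none past the threshold in the fit of all 4 groups. NAB2 passed without replicate 2 of parent cells labelled DMSO (0.28, adjusted p = 0.0089). By limma on log2(TPM + 0.1), NAB1 (0.28) and NAB2 (0.46) passed as well, on a scale where the median of all genes in this comparison was 0.25 against -0.01 by edgeR.

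Under the prexasertib label the knockout and the parent were closer. Of the 8 genes 2 were higher and 1 was lower in the knockout, against 28.1% of all genes called, 14.5% higher and 13.5% lower. NAB1 was higher by 0.22 (SE 0.05, adjusted p = 0.0025 by edgeR), a call kept in 12 of 12 leave-outs and lost with all reads of the gene (0.11, adjusted p = 0.11). NR4A2 was higher by 0.51 (SE 0.18, adjusted p = 0.034) and EGR1 lower, at -0.53 (SE 0.17, adjusted p = 0.023), and both calls depended on single libraries. EGR1 had -0.22 (adjusted p = 0.33) without replicate 1 of parent cells labelled prexasertib and also missed the threshold without replicate 1 (0.096) or 3 (0.092) of knockout cells labelled prexasertib, with only the groups compared (adjusted p = 0.11) and by limma (-0.15 on log2(TPM + 1), -0.30 on log2(TPM + 0.1)). NR4A2 missed it without replicate 3 of parent cells labelled prexasertib (0.39, adjusted p = 0.14) and without replicate 1 (0.078), 2 (0.05, above the threshold before rounding) or 3 (0.096) of knockout cells so labelled, with no filter on low counts (0.069), with only the groups compared (0.12) and with all reads (0.17, adjusted p = 0.29). NR4A1 had -0.14 (SE 0.10, adjusted p = 0.33 by edgeR) on exonic reads and was called with all reads of the gene (-0.36, adjusted p = 0.0081). NR4A3 had 0.27 (SE 0.21, adjusted p = 0.37) and passed without replicate 1 of parent cells labelled prexasertib (0.71, adjusted p = 0.0059). NAB2 had 0.14 (SE 0.09, adjusted p = 0.25 by edgeR). It was called by limma on log2(TPM + 1) (0.25, adjusted p = 0.017) and log2(TPM + 0.1) (0.29, adjusted p = 0.019), scales on which most called genes were higher.

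**Figure D3:**
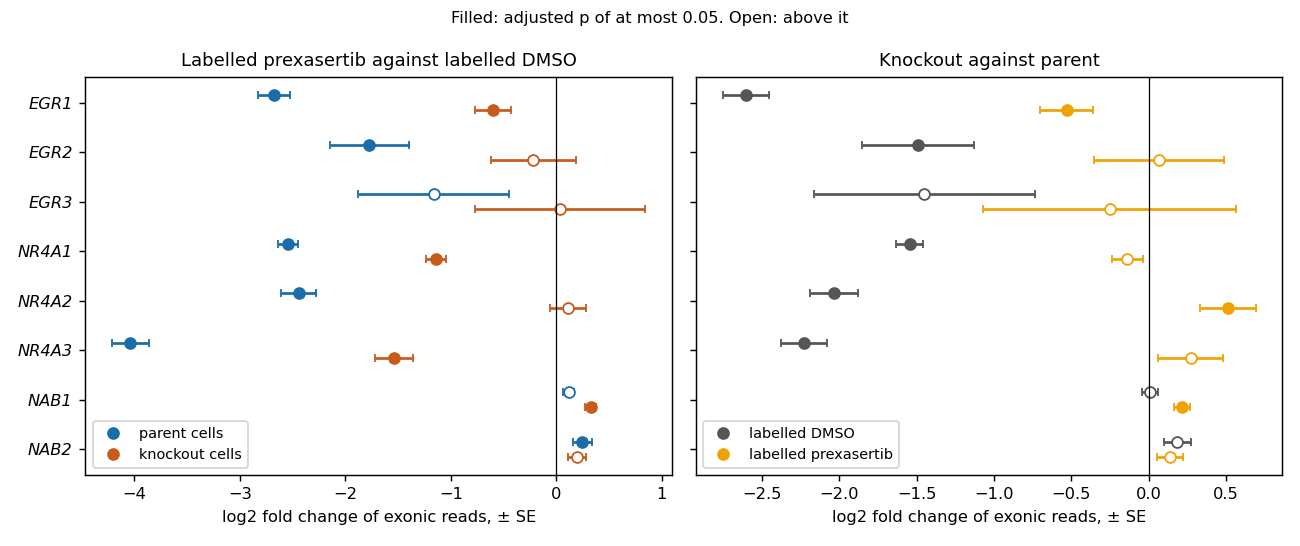
Log2 fold changes of exonic reads (x axis) with their SE for the 8 genes (y axis), filled where the edgeR adjusted p is at most 0.05. The left panel gives labelled prexasertib against labelled DMSO in each line and the right panel knockout against parent under each label. The 5 lower genes lie far left in parent cells and under the DMSO label, whereas NAB1 and NAB2 lie within 0.33 of 0.

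Levels per length were compared on the deposited TPM scale, an abundance that the authors computed from exonic reads and exonic length. In parent cells labelled DMSO, NAB1 came first with 11.03 ± 0.82 TPM (SD, n = 3), followed by NR4A1 with 5.04 ± 0.17, EGR1 with 4.95 ± 0.31 and NAB2 with 4.65 ± 0.51. The ranges of NR4A1 and EGR1 overlapped, as did those of EGR1 and NAB2. NR4A3 (2.33 TPM), NR4A2 (1.32), EGR2 (0.209) and EGR3 (0.0503) followed, each apart from the next. This order holds for exonic TPM only: with TPM of all reads of the gene, 0 of the 8 places were kept. Of the exonic reads of NAB1, 45.5% lay outside other annotated genes.

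In the other 3 groups the corepressors came first and second on exonic TPM, and the order with all reads was not compared there. In parent cells labelled prexasertib, knockout cells labelled DMSO and knockout cells labelled prexasertib, NAB1 had 13.22, 13.4 and 17.1 TPM and NAB2 had 6.11, 6.44 and 7.48 TPM. NR4A1 had 0.955, 2.10 and 0.963 TPM and EGR1 had 0.858, 0.988 and 0.657 TPM in the same groups. EGR1 and NAB2, a factor and its corepressor with overlapping ranges in parent cells labelled DMSO, were thus apart in every other group. NR4A2 and NR4A3 exchanged places between labels in both lines, with overlapping ranges in parent cells labelled prexasertib.

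Intronic reads come largely from RNA that is not yet spliced and served as another readout of the same genes. The gene models held 104216 intronic and 3689 exonic bases for EGR2, and 29724 and 6952 for NR4A1. Gene counts do not show where in such stretches the reads lay or which transcript they came from. EGR3 did not pass the filter on low counts there: its introns had 5, 6 and 6 reads in parent cells labelled DMSO, 2, 2 and 0 in those labelled prexasertib and 0 in all 6 knockout libraries. Of the 7 genes tested in parent cells, 4 were lower and 1 was higher under the prexasertib label, against 30.8% of 19852 genes called and 15.6% lower. EGR1 introns fell by 3.11 (SE 0.39, adjusted p = 2.8e-06 by edgeR) and NR4A3 introns fell by 3.31 (SE 0.26, adjusted p = 2.7e-09), beside exonic changes of -2.68 and -4.04. NR4A1 introns fell by 1.30 (SE 0.12, adjusted p = 5e-08) and NR4A2 introns fell by 0.63 (SE 0.13, adjusted p = 0.00089), where their exonic changes were -2.54 and -2.44. The higher gene was NAB1 (0.22, SE 0.07, adjusted p = 0.022), a call lost without replicate 2 of parent cells labelled DMSO (0.20, adjusted p = 0.082), on reads outside other genes (0.18, adjusted p = 0.08) and with only the groups compared (0.22, adjusted p = 0.10). EGR2 had -1.41 (SE 0.65, adjusted p = 0.11) and -2.53 without replicate 2 of parent cells labelled prexasertib, where it passed (adjusted p = 0.021).

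In knockout cells 3 of the 7 genes had lower introns and 1 had higher, where 12% of all genes were called, 6.15% lower and 5.83% higher. NR4A1 introns fell by 1.23 (SE 0.13, adjusted p = 8.8e-07 by edgeR) and NAB1 introns rose by 0.40 (SE 0.07, adjusted p = 0.00057), both kept in 12 of 12 leave-outs. EGR1 introns, with 2 to 26 reads per knockout library, fell by 1.90 (SE 0.49, adjusted p = 0.012), a call lost without replicate 2 of knockout cells labelled DMSO (adjusted p = 0.055) and without replicate 2 (0.054) or 3 (0.074) of those labelled prexasertib. NR4A3 introns fell by 0.84 (SE 0.25, adjusted p = 0.033 by edgeR), a call lost in 7 of 12 leave-outs: without any 1 of the knockout libraries other than replicate 3 labelled DMSO, and without replicate 1 or 3 of parent cells labelled DMSO, with adjusted p up to 0.15. NR4A2 had 0.20 (SE 0.14, adjusted p = 0.39).

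Between the lines, introns of 5 of the 7 genes were lower in the knockout under the DMSO label, against 30.3% of all genes called and 16% lower. EGR1 had -2.10 (SE 0.35), NR4A3 -1.76 (SE 0.22), NR4A1 -0.70 (SE 0.12), NR4A2 -0.68 (SE 0.13) and NAB1 -0.33 (SE 0.07), with adjusted p from 3.2e-06 to 0.0012 by edgeR. For NAB1 the exonic value was 0.0061. Under the prexasertib label 1 gene was called, NR4A1 with -0.64 (SE 0.13, adjusted p = 0.0015), where 18.8% of all genes were, 9.16% lower and 9.62% higher. NR4A3 introns had 0.70 (adjusted p = 0.10) there and 1.42 (adjusted p = 8.2e-05) without replicate 1 of parent cells labelled prexasertib.

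The lines differed in the intronic effect of the label for 2 of the 7 genes, against 9.84% of all genes, 5.82% in the lower and 4.02% in the higher direction. The difference was -2.46 (SE 0.37, adjusted p = 0.00015 by edgeR) for NR4A3, near its exonic value of -2.50. It was -0.83 (SE 0.19, adjusted p = 0.0069) for NR4A2, smaller than its exonic value of -2.55. NR4A1 had -0.06 (SE 0.18, adjusted p = 0.87) on introns, with changes of -1.30 and -1.23 in parent and knockout cells, where its exonic value was -1.41. EGR1 had -1.21 (SE 0.68, adjusted p = 0.28).

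Exonic and intronic changes were then set against each other in 1 model over both readouts, on 17090 genes, a test added after the values above had been seen. In parent cells 3 of the 7 genes were called, each with an exonic change more negative than the intronic one, and 19.2% of all genes were called in either direction. The gap was -1.23 (SE 0.12, adjusted p = 1.8e-06 by edgeR) for NR4A1 and -1.77 (SE 0.20, adjusted p = 1e-05) for NR4A2, both kept in 12 of 12 leave-outs. It was -0.64 (SE 0.22, adjusted p = 0.046) for NR4A3, a call lost in 10 of 12 leave-outs, with the value at its smallest, -0.42, without replicate 1 of parent cells labelled prexasertib. EGR1 had 0.48 (SE 0.38, adjusted p = 0.42). In knockout cells 0 of the 7 genes passed this test with edgeR, against 4.11% of all genes, and 3 had an unadjusted p under 0.05 (EGR1, NAB2 and NR4A3). Without replicate 1 of parent cells labelled prexasertib, NR4A3 passed there too (-0.69, adjusted p = 0.037). The lines differed in the gap for NR4A1 (-1.32, SE 0.18, adjusted p = 0.00032 by edgeR) and NR4A2 (-1.68, SE 0.30, adjusted p = 0.0022), 2 of the 7 genes where 8.06% of all genes were called, and NR4A3 had 0.04 (SE 0.30, adjusted p = 0.99).

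The share of a gene's reads that lay in its introns was also taken library by library, without scaling for the intronic share of the whole library. For NR4A1 it was 23.9, 22.9 and 23.5% in parent cells labelled DMSO, 49.4, 44.4 and 43.4% in parent cells labelled prexasertib, 36.3, 35.8 and 38.4% in knockout cells labelled DMSO, and 39.7, 33.1 and 33.1% in knockout cells labelled prexasertib. For NR4A2 it was 58.6, 58.2 and 60.2%, then 82.7, 84.3 and 88.9%, then 79.3, 80.3 and 79.5%, and last 77.5, 82.2 and 81.7% in the same order of groups. In both genes parent cells labelled DMSO had the lowest shares, apart from all other libraries. NR4A3 had means of 27.2, 39.7, 35.4 and 46.9% and NAB1 of 30.1, 34.8, 26.7 and 27.6% in that order. NR4A1, NR4A2, NR4A3 and NAB1 are those whose shares did not overlap between the labels in parent cells. The NAB1 gap there was -0.07 (adjusted p = 0.54 by edgeR). The other genes overlapped there. In the same order EGR1 had means of 7.8, 7.3, 11.4 and 4.9% and EGR2 of 27.5, 27.0, 38.8 and 27.3%. NAB2 had 7.3, 7.2, 9.6 and 7.3%, and EGR3 had few reads. The intronic share of the whole library was 23.9 to 25.6% in parent cells labelled DMSO and 25.9 to 30.3% in those labelled prexasertib. Its part in these shares was not tested. The shares were not tested either, since 3 libraries against 3 cannot go below an exact permutation p of 0.1. Replicate 1 of parent cells labelled prexasertib, whose whole-library intronic share was 30.3%, was also the highest of its group for NR4A1, NR4A3 and NAB1 and the lowest for NR4A2.

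**Figure D4:**
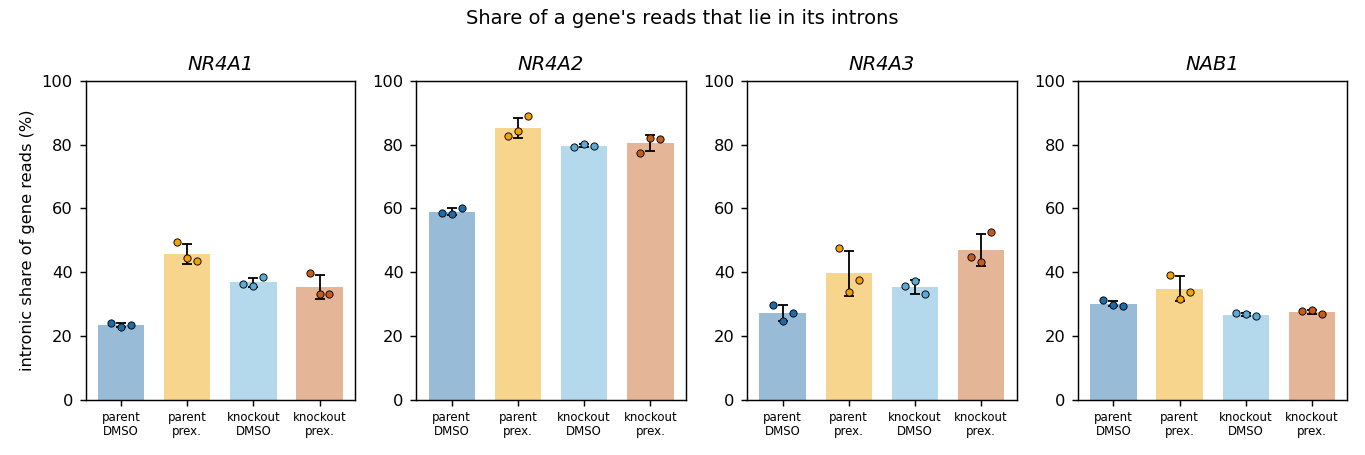
Intronic reads as a percentage of exonic plus intronic reads of NR4A1, NR4A2, NR4A3 and NAB1 (y axis) by line and labelled treatment (x axis). Points are the 3 libraries, bars their mean and whiskers 1 SD. NR4A1 and NR4A2 have their lowest shares, means of 23.4 and 59.0%, in parent cells labelled DMSO. EGR1, EGR2, EGR3 and NAB2, whose shares overlapped between the labels in parent cells, are not drawn.

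Genes whose levels followed the same pattern over the 12 libraries were found by Pearson's r of log2 CPM among 14631 genes, as a description in which the libraries share their grouping. Nearest to EGR1 were JUND (r = 0.994), an AP-1 subunit, E2F8 (0.993), a repressor of the E2F family, and SRGAP2B (0.990), a gene with near-identical copies whose counts are uncertain. Nearest to NR4A1 were CDC25C (0.995), the phosphatase of mitotic entry, HJURP (0.995), the chaperone of the centromeric histone, and IER3 (0.995), an early response gene. Nearest to NAB1 were FOXN3 (0.980), PTPN2 (0.976) and GMPS (0.969).

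Lists of genes around the 8 were described by counts and medians. Of 15 upstream factors, all tested, 3 were higher and 7 lower in parent cells under the prexasertib label, with a median of -0.24 beside 0.04 for all genes, of which 18.2% were higher and 18.2% lower. The inducible CREB family member CREM (-1.53, SE 0.08), the CREB coactivator CRTC2 (-0.81, SE 0.07) and MEF2A (-0.46, SE 0.05) fell, and the SRF partner ELK1 rose by 0.49 (SE 0.06), with adjusted p from 1.7e-14 to 8.4e-07 by edgeR. In knockout cells 0 of the 15 rose by edgeR, 2 of them having a higher value at an unadjusted p under 0.05, and 2 fell, a share near the 12.9% called over all genes (6.11% higher and 6.83% lower). Of 18 SRF target genes tested, out of 20, 4 were higher and 8 lower in parent cells (median -0.06). Those with the smallest p were JUNB (-1.97, SE 0.07) and IER2 (-1.46, SE 0.06), and in knockout cells 1 was higher and 5 lower.

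Of 14 EGR target genes tested, out of 17, 2 were higher and 7 lower in parent cells, with a median of -0.40, where 18.2% of all genes were higher and 18.2% lower. Those with the smallest p were the cyclin-dependent kinase inhibitors CDKN1A (-2.90, SE 0.10) and CDKN1B (-0.75, SE 0.06). In knockout cells 2 were higher and 1 lower, where 6.11% of all genes were higher and 6.83% lower. Of 10 NR4A partners and targets tested, out of 11, 4 were higher and 3 lower in parent cells (median -0.04, 36.3% of all genes called), among them the receptor PDCD1 (PD-1) with -3.06 (SE 0.15) and the NR4A dimer partner RXRA with 0.72 (SE 0.10). In knockout cells 3 were higher and 2 lower, against 12.9% of all genes called.

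The 13 genes of the NuRD complex and other NAB partners were all tested, and 7 were higher and 0 lower in parent cells by edgeR (median 0.18), where 18.2% of all genes were higher, while 1 was higher and 0 lower in knockout cells, where 6.11% of all genes were higher. At an unadjusted p under 0.05, 0 of the 13 were lower in either line. The deacetylases HDAC1 (0.50, SE 0.05) and HDAC2 (0.46, SE 0.05) had the smallest p. Between the lines, the label's effect differed for 6 of 15 upstream factors, 10 of 18 SRF targets, 6 of 14 EGR targets, 3 of 10 NR4A partners and targets and 5 of 13 NuRD and NAB partners, against 16.8% of all genes.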

How the data were processed

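The 12 RNA-seq libraries, from TRIzol RNA, shared 1 HiSeq4000 paired-end run, per the labels' protocols. The submitters' processing notes name Picard 2.9.2, STAR 2.5.4a, Trimmomatic 0.39 and Trim Galore 0.6.2 as tools and hg19 as the build, without roles. As counter, annotation and strand setting are not given in the sources used here, reads of a gene and of an antisense partner cannot be told apart. The deposited files give, per the file headers, a read count of each gene, of its exons and introns and of the parts outside other genes. They also give TPM values that the authors scaled for gene length and library size. Of exonic counts between 1 and 10, 73.7% were even, so mates appear to have been counted singly and counts overstate the number of fragments.

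Samples were grouped by the labels of the record a file is attached to. Genes with no line in a file were taken as 0. Of 44183 features, 36 pseudoautosomal copies of Y were dropped. File coordinates were raised by 1, after which 37 of 37 mitochondrial genes matched the annotation. Replicates differed beyond sampling noise, with a chi-square per degree of freedom of 4.54 to 37.98. Exonic and intronic counts were each tested in R 4.3.3 with edgeR 4.0.16 (filterByExpr with minimum count 10, TMM, 1 model of 4 group means, robust quasi-likelihood F test, Benjamini-Hochberg over all genes tested, threshold 0.05). CPM uses TMM-scaled library sizes. The test was also run on counts simulated with 1 fixed spread between replicates for all genes. Those counts held no mates counted singly and no library that stood out, so they do not show how the test behaves on these data. DESeq2 1.42.0 and limma 3.58.1 served as alternatives.

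The 8 genes, the lists around them and the tests were chosen with earlier results of these data known. Named beside the 8 were SLFN11, the 3 genes most like the highest member of each family (mean log2 CPM of at least 1, 0.5 CPM added), and of each list the 2 genes with the smallest p in parent cells, or 4 for the upstream factors. EGR4 and the cell type markers were added to these. Promoter sequences are from RefSeq (GRCh38.p14), with entries matched for 6 of the 8 genes.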

Additional observations from a re-analysis of the deposited data

Results flagged for a closer look

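The prexasertib-against-DMSO effect of the labels differed between the lines, by the interaction term in edgeR, for the exonic reads of 4 of the 8 genes: EGR1 (-2.08), NR4A1 (-1.41), NR4A2 (-2.55) and NR4A3 (-2.50), where 16.8% of all genes were called. On intronic reads it differed for NR4A2 (-0.83) and NR4A3 (-2.46), where 9.84% of all genes were called. All 6 calls were kept in each leave-out of 1 library.

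Among the genes named from the lists, the same term was negative for CREM (-1.33), CRTC2 (-0.43), MEF2A (-0.52), JUNB (-1.75), IER2 (-1.30), CDKN1A (-2.85), CDKN1B (-0.79) and PDCD1 (-2.56). It was positive for ELK1 (0.39), RXRA (0.53), HDAC1 (0.42) and HDAC2 (0.34). These genes were chosen for their small p in parent cells, which enter the term. Under the library names of the files all of these signs are opposite. RXRA missed the threshold without replicate 3 of knockout cells labelled prexasertib (0.42, adjusted p = 0.055).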

How the results depend on the processing

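No called value changed sign under any alternative tried, and the calls of EGR1, EGR2, NR4A1, NR4A2 and NR4A3 in parent cells and under the DMSO label held in every alternative on exonic reads that kept the gene. The limits are the conflict over treatment labels, the low counts of EGR2 and EGR3, an unstated handling of read mates, and 3 libraries a group. Genes of the NuRD and NAB list called in parent cells were 7, and 11 by limma on log2(TPM + 1) and on log2(TPM + 0.1). Genes of that list called in the interaction were 5, 2 with all reads of the gene, and 3 to 6 over leave-outs. Of the 8 genes, 3 differed between the lines under the prexasertib label on exonic reads, 1 with only the groups compared, and 1 to 3 over leave-outs. On intronic reads the count there was 1, 2 with no filter on low counts, and 1 to 2 over leave-outs. The intronic count in knockout cells was 4, and 2 to 4 over leave-outs. The count of exonic-less-intronic calls in knockout cells was 0, and 0 to 1 over leave-outs. Of the 8 places in the order of levels in parent cells labelled DMSO, 0 were kept with TPM of all reads in place of exonic TPM. Fewer samples entered the leave-outs and the fits of the compared groups, and the cause of the other shifts was not tested.

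Values not past the threshold changed sign as follows. EGR3 in knockout cells was -0.0094 by limma on log2(TPM + 0.1) and -1.11 to 0.61 over leave-outs. NAB1 between the lines under the DMSO label was -0.029 with a mean CPM of at least 1, -0.037 on reads outside other genes, -0.091 with all reads and -0.055 to 0.036 over leave-outs. NR4A1 under the prexasertib label was 0.0059 and 0.0107 by limma. The interaction of NAB2 was -0.030 with all reads and -0.075 to 0.12 over leave-outs, and that of SLFN11 was 0.031 on log2(TPM + 1) and 0.029 on log2(TPM + 0.1). NAB2 introns in parent cells were -0.0060 with a mean CPM of at least 1, -0.0062 outside other genes and -0.20 to 0.16 over leave-outs. Leave-outs also spanned 0 for EGR2 (-0.058 to 0.29; introns -0.84 to 0.77) and EGR3 (-1.41 to 0.70) under the prexasertib label, the intronic interactions of NR4A1 (-0.19 to 0.029) and EGR2 (-1.48 to 0.13), and the exonic-less-intronic values of NR4A2 in knockout cells (-0.22 to 0.0057) and of NR4A3 in the interaction (-0.12 to 0.27). DESeq2 gave no adjusted p for 5 of the values.

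No pairing by replicate number was seen: correlations of 18 same-numbered pairs ran from -0.27 to 0.16, 4 of them over 0.1. Of the 18, 6 correlated best with their own number. With deviations from means of 3 libraries a group, this check could miss a pairing. With the replicate block, counts of the 8 genes were 6, 4, 5, 3 and 4 in the order parent cells, knockout cells, DMSO label, prexasertib label and interaction, as without it, and EGR3 in knockout cells was -0.026.

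Over all genes, exonic calls in knockout cells numbered 2982, 4878 with only the groups compared, 1919 by limma on log2(TPM + 0.1) and 1905 to 4543 over leave-outs. Intronic calls there numbered 2377, 5195 with only the groups compared and 1420 to 4369 over leave-outs. Intronic calls between the lines under the prexasertib label numbered 3728, and 2268 with only the groups compared. The intronic interaction had 1953, with a low of 1226 over leave-outs. On the TPM scale the higher genes made up 71.8 and 72.1% of those called in parent cells (49.95% by edgeR), 83.4% under the DMSO label (49.0%), 82.7 and 82.4% under the prexasertib label (51.8%) and 72.0 and 72.6% in the interaction (43.4%).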

Other observations

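The lists around the 8 genes were also compared between the lines. Under the DMSO label, 0 of 15 upstream factors were higher by edgeR (also 0 at an unadjusted p under 0.05) and 11 lower in the knockout (median -0.32), 2 of 18 SRF target genes were higher and 10 lower (median -0.34), and 3 of 14 EGR target genes were higher and 9 lower (median -0.43), beside a median of -0.01 for all genes, of which 19.6% were higher and 20.4% lower. Values ran from -6.57 to 0.14 for the upstream factors and from -1.82 to 1.07 for the SRF targets. For the EGR targets they ran from -4.25 to 1.60. Of 10 NR4A partners and targets 1 was higher and 3 lower (median -0.05), and of 13 NuRD and NAB partners 5 were higher and 2 lower (median 0.06). Under the prexasertib label the counts were 2 higher and 8 lower for upstream factors, 3 and 8 for SRF targets, 2 and 5 for EGR targets, 3 and 2 for NR4A partners and targets and 3 and 4 for NuRD and NAB partners, beside 14.5% higher and 13.5% lower over all genes. The upstream factors ran from -5.13 to 0.28 under that label. The epithelial marker EPCAM had mean levels of 1.49 and 1.32 CPM in parent cells and 9.55 and 10.19 CPM in knockout cells.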
